A study of Mus musculus with 15 samples.

Results

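The aquaporins of these libraries are 8 genes, Aqp1, Aqp2, Aqp3, Aqp4, Aqp6, Aqp7, Aqp8 and Aqp11, chosen by gene symbol from the 54752 genes of a count table of mouse kidney tubules. They are 8 of the 12 genes of the family in the table, and each symbol matched 1 row. The libraries came from tubules dissected after enzymatic preparation of kidney slices, in 4 groups. They are Cldn10a KO proximal tubule (n = 3), WT proximal tubule (n = 4), Cldn10a KO distal convoluted tubule (n = 4) and WT distal convoluted tubule (n = 4). Cldn10a KO mice lack claudin-10a, a paracellular anion channel of proximal tight junctions. All mice had free access to a standard diet and water. The sources used here give no strain, age or sex and do not say how the allele was made. From each kidney, 10 proximal or some 20 distal tubules were pooled. Whether the libraries of a group came from separate animals is not stated, so the p-values cover the spread among these libraries, which may be technical.

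Aquaporins are membrane channels that let water, and in some members glycerol, urea or anions, cross a lipid bilayer. In the kidney, Aqp1 carries the water that follows sodium out of the proximal tubule. Aqp2 is inserted into the apical membrane of principal cells under vasopressin, and water leaves those cells through Aqp3 and Aqp4. Aqp6 lies in intracellular vesicles of acid-secreting intercalated cells and conducts anions. Aqp7 and Aqp3 also carry glycerol, Aqp8 can carry hydrogen peroxide and ammonia, and Aqp11 lies in the endoplasmic reticulum of proximal cells. Mice without Aqp11 develop cystic proximal tubules.

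Per the GENCODE M21 annotation of GRCm38, several of the 8 genes are neighbours. Aqp7 (chr4:41033074-41048139, minus strand) and Aqp3 (chr4:41092722-41098183, minus strand) are 44582 bases apart with no protein-coding gene between them. Aqp2 (chr15:99579055-99584547) and Aqp6 (chr15:99601400-99605477) lie on the plus strand, 16852 bases apart, with Aqp5 between them. Aqp1 (chr6:55336432-55348555) and Aqp8 (chr7:123462291-123468004) lie on the plus strand. Aqp11 (chr7:97724006-97738289) lies on the minus strand. Of the 8, Aqp4 alone overlaps an annotated gene, the antisense gene AC133525.2, which had 0 counts in all 15 libraries.

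The promoters of 5 members are shown. Aqp1 and Aqp7 passed 10 counts in every proximal and no distal library. Aqp2 and Aqp6 did so in every distal and no proximal library, so these 4 separate proximal from distal libraries. Aqp3 is shown as a member detected in both segments. Each is the 250 bases before the RefSeq start of the gene on GRCm38.p6, written 5′ to 3′ on the strand of the gene, with matches to the motifs searched in capitals.
Aqp1, chr6:55336049-55336298, plus strand: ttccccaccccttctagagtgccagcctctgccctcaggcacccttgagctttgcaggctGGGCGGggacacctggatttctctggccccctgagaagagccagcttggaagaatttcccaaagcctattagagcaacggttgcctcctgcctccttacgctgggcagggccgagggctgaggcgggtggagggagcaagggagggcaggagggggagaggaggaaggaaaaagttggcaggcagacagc
Aqp7, chr4:41048137-41048386, minus strand: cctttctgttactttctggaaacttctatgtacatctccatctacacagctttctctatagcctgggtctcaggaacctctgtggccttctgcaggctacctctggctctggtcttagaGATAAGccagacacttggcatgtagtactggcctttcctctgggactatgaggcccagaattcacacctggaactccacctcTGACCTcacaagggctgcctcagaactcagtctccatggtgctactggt
Aqp2, chr15:99578806-99579055, plus strand: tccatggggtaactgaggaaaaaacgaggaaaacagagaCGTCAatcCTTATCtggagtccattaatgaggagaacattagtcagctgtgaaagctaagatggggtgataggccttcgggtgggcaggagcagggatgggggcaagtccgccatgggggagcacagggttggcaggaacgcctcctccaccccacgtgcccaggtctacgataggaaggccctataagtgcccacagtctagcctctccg
Aqp6, chr15:99600950-99601199, plus strand: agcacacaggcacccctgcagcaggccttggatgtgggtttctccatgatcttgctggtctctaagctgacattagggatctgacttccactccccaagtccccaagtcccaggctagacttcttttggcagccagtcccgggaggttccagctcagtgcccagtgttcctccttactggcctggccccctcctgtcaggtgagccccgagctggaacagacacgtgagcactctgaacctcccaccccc
Aqp3, chr4:41098184-41098433, minus strand: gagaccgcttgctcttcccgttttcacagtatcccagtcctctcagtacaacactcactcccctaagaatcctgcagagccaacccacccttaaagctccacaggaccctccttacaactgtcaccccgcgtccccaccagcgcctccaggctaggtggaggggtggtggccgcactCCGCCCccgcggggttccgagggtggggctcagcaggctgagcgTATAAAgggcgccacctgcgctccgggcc

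The motifs were searched on both strands in the same 250 bases of 32851 RefSeq promoters. Among all of them, the TATA box, spelled TATAAA, was found in 12.4% and the GC box, spelled GGGCGG, in 32.7%. The HNF1 half-site, spelled GTTAAT, was found in 6.43% and the GATA site, spelled GATAAG, in 6.55%. The nuclear receptor half-site, spelled AGGTCA, was found in 14% and the cyclic AMP half-site, spelled CGTCA, in 17.8%. Aqp3 held a TATA box that begins at position -29 from the start, and a GC box. Aqp2 held a cyclic AMP half-site at position -211 and a GATA site at position -203. The Aqp7 window shown held a GATA site and a nuclear receptor half-site, and the overlapping window of a second annotated Aqp7 start held that same half-site and 1 more. Aqp1 held a GC box, and none of the motifs was found in the window of Aqp6. The matches within a window did not overlap. RefSeq promoters of 7 of the 8 members were searched, and Aqp4 was left out of this search.

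The libraries held 28729339 to 51764746 counts (median 42660626). Nuclear protein-coding genes gave 8.02 to 19.7% of them and mitochondrial ribosomal RNA 57.8 to 71.6%, so levels scaled to the reads of all genes (CPM, counts scaled to 1e6) are low for nuclear genes. Lrp2, the endocytic receptor megalin of proximal cells, had 63164 to 76371 counts in KO and 62659 to 91713 in WT proximal libraries, against 236 to 483 in KO and 248 to 490 in WT distal libraries. Slc12a3, the sodium chloride cotransporter of the distal convoluted tubule, had 20990 to 32109 counts in KO and 17921 to 38535 in WT distal libraries, and 15 counts or fewer in proximal libraries. Cldn10 had 0 counts in the 3 KO proximal libraries, against 541 to 1514 in WT. In distal tubule it had 0 to 24 counts in KO and 3 to 22 in WT, so the deletion cannot be read there, and its row does not separate claudin-10a from the other isoform.

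Per length of exon, 4 aquaporins made up nearly all aquaporin RNA of the proximal tubule and 4 that of the distal tubule, with Aqp3 and Aqp11 in both sets. In CPM per kilobase, summed over the 8 genes, KO proximal libraries held 25.6 ± 3.16 (SD, n = 3) and WT proximal libraries 19.0 ± 2.4 (SD, n = 4). Aqp1 gave 75.0 ± 6.05% of that sum in KO and 62.6 ± 1.93% in WT proximal libraries. The shares of Aqp11, 9.87% in KO and 13.0% in WT, and of Aqp3, 9.03% in KO and 13.0% in WT, came next. Aqp7 gave 5.51% in KO and 10.9% in WT. The share of Aqp11 depends on its length: with the longest transcript in place of all exons it was 14.9% in KO and 19.2% in WT, and that of Aqp1 70.1% in KO and 56.9% in WT. The distal sums were 4.85 ± 1.88 CPM per kilobase in KO and 8.25 ± 2.21 in WT (SD, n = 4 each). Aqp6 gave 46.2 ± 13.8% of the distal sum in KO and 38.5 ± 13.0% in WT, Aqp2 24.4 ± 11% in KO and 34.0 ± 14.3% in WT, and Aqp3 22.9 ± 9.84% in KO and 24.4 ± 2.95% in WT. Aqp11 gave 5.51% in KO and 1.94% in WT distal libraries.

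**Figure D1:**
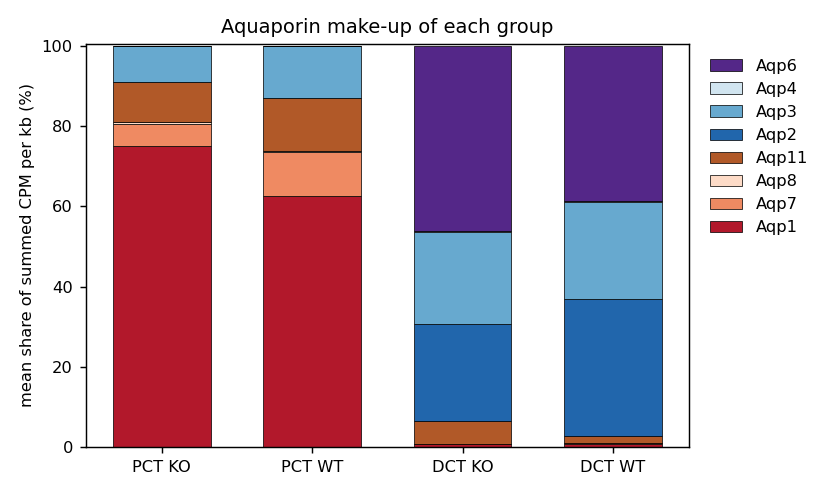
Mean share (%) of each of the 8 aquaporins in their summed CPM per kilobase, as stacked bars for KO and WT proximal (PCT) and KO and WT distal (DCT) libraries. Aqp1 fills 75.0% of the KO and 62.6% of the WT proximal bar, and Aqp6, Aqp2 and Aqp3 fill most of both distal bars.

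The order of the levels followed the same split. In KO proximal libraries Aqp1 averaged 19.2 CPM per kilobase, and in WT 11.9, and its lowest library lay above the highest library of the next gene in both genotypes. Behind it, Aqp11 (2.5 in KO and 2.46 in WT), Aqp3 (2.3 in KO and 2.51 in WT) and Aqp7 (1.41 in KO and 2.05 in WT) had overlapping ranges between neighbours in the order. With the longest transcript as length, Aqp11 was second in both genotypes, at 4.06 in KO and 4 in WT, with a range above that of Aqp3. Aqp8 followed at 0.118 in KO and 0.076 in WT. In distal libraries Aqp6 averaged 2.07 CPM per kilobase in KO and 2.99 in WT, and Aqp2 1.33 in KO and 3.01 in WT, with overlapping ranges. Aqp3 followed at 1.15 in KO and 2 in WT, with a range that overlapped Aqp2 in KO libraries and lay below Aqp6 in WT libraries. Aqp11 came next at 0.239 in KO and 0.161 in WT distal libraries.

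The first question was in the libraries of which segment each aquaporin was higher. Of the 6 members that passed the filter on low counts, Aqp1, Aqp7 and Aqp11 were higher and Aqp2 and Aqp6 lower in proximal than in distal tubule in both genotypes (limma with voom weights, Benjamini-Hochberg adjusted p under 0.05 over all genes tested). In KO tubules 20.4% of all genes tested were called higher in proximal libraries and 20.2% lower. In WT tubules 23.6% were called higher and 25.1% lower. Aqp3 was called in neither genotype, and Aqp4 and Aqp8 were below the filter. The distal libraries also held connecting tubule markers, which summed to 5497 to 7494 CPM in KO and 6423 to 9356 CPM in WT. Intercalated cell markers summed to 149 to 256 CPM in KO and 229 to 299 CPM in WT distal libraries. Which cells of the distal libraries gave the Aqp2 and Aqp6 RNA was not tested.

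Aqp1 had 1975, 2242 and 1859 counts in KO proximal libraries, against 0, 6, 5 and 8 in KO distal libraries. In WT it had 1573, 1428, 1402 and 1602 counts in proximal and 9, 3, 6 and 6 in distal libraries. The segments were far apart in each genotype. The proximal to distal log2 difference was 9.11 ± 0.72 (SE) in KO (limma adjusted p = 1.72e-07) and 7.68 ± 0.53 in WT (limma adjusted p = 6.53e-09). From summed counts, Aqp1 was 411-fold higher in KO proximal libraries (95% exact interval 263 to 683) and 205-fold higher in WT proximal libraries (137 to 320). Exact intervals on summed counts, and bounds from a floor of counts, leave out the spread among libraries, on which limma intervals rest. The reads carry no molecular identifiers, so amplified copies may be counted and even the counting error may be understated.

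Aqp7, the glycerol channel of the proximal brush border, had 175, 137 and 167 counts in KO proximal libraries and 0 in the 4 KO distal libraries, at least 51.5-fold higher with a floor of 3 counts per library. In WT it had 258, 228, 375 and 265 counts in proximal libraries, and 0, 0, 1 and 1 in distal libraries, a ratio of 461 (95% exact interval 127 to 3807). Fitted log2 differences were 8.26 ± 0.62 in KO and 8.00 ± 0.65 in WT (limma adjusted p = 1.11e-07 and 3.79e-08), and depend on the prior count where a segment is at or near 0.

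Aqp11, unlike Aqp1 and Aqp7, had more than 30 counts in every distal library. It averaged 23.6 ± 4.01 CPM in KO proximal and 2.25 ± 0.473 CPM in KO distal libraries (SD, n = 3 and 4), and 23.2 ± 1.96 CPM in WT proximal and 1.52 ± 0.544 CPM in WT distal libraries (SD, n = 4 each). It was 10.7-fold higher in KO proximal tubule (log2 3.41 ± 0.24, limma adjusted p = 6.84e-08) and 16.6-fold higher in WT proximal tubule (log2 4.05 ± 0.26, limma adjusted p = 3.02e-09).

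Aqp2, the vasopressin-regulated water channel, had 0 counts in all 7 proximal libraries. It had 18, 134, 79 and 54 counts in KO distal libraries, so that proximal tubule was at least 25.3-fold lower in KO. In WT distal libraries it had 149, 303, 152 and 50 counts, and proximal tubule was at least 68.4-fold lower. The fitted log2 differences were -6.86 ± 1.21 in KO and -8.35 ± 1.33 in WT (limma adjusted p = 0.000328 and 6.25e-05).

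Aqp6, the vesicular channel of intercalated cells, had 0 counts in the 3 KO proximal libraries, against 157, 219, 203 and 196 in KO distal libraries, and was at least 67.1-fold lower in proximal tubule. In WT it had 0, 1, 0 and 4 counts in proximal and 185, 345, 257 and 377 in distal libraries. That is a proximal to distal ratio of 0.00351 (95% exact interval 0.00114 to 0.00822). The fitted log2 differences were -8.63 ± 0.73 in KO and -8.28 ± 0.68 in WT (limma adjusted p = 3.4e-07 and 4.55e-08).

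The sizes of the fitted segment differences depend on how counts near 0 are treated. With limma-trend on log2(CPM + 0.5), Aqp1 was at 6.34 in KO and 5.59 in WT, and Aqp7 at 3.13 in KO and 3.63 in WT. Aqp2 was at -2.02 in KO and -3.08 in WT, and Aqp6 at -3.41 in KO and -3.90 in WT. These 4 genes were called in both genotypes in that fit too. Aqp11, with counts in both segments, was at 3.13 in KO and 3.6 in WT, so the order of sizes among the members also depends on the fit.

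Aqp3, a basolateral channel for water and glycerol known from principal cells, was detected in every library of both segments. In KO it had 5.49, 2.73 and 4.41 CPM in proximal libraries and 0.525, 2.59, 2.41 and 2.91 CPM in distal libraries. In WT it had 4.61, 4.16, 3.20 and 6.37 CPM in proximal libraries and 4.20, 4.64, 2.81 and 2.95 CPM in distal libraries. The segments overlapped in both genotypes. The log2 difference was 1.18 ± 0.46 in KO (95% interval 0.20 to 2.17, limma adjusted p = 0.0536) and 0.30 ± 0.24 in WT (95% interval -0.20 to 0.80, limma adjusted p = 0.315). Without KO distal replicate 5, the lowest distal library, the KO difference was 0.65, and without KO proximal replicate 5 it was 1.46 and called (limma adjusted p = 0.0281).

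The markers listed for principal cells were low in the proximal libraries, where Aqp3 was detected. The 9 principal cell markers that are not aquaporins summed to 0.224 to 0.859 CPM in KO and 0.785 to 1.28 CPM in WT proximal libraries, below the level of Aqp3 itself in each of them. The same sum was 376 to 443 CPM in KO and 350 to 451 CPM in WT distal libraries. Kcnj1 averaged 194 CPM in KO and 180 CPM in WT distal libraries, and Scnn1a 93.6 CPM in KO and 106 CPM in WT. Scnn1g, Gata3 and Kcnj1 had 0 counts in KO proximal and 249 or more in every KO distal library, and 4 counts or fewer in WT proximal and 298 or more in every WT distal library. Avpr2 and Elf5 were at or near 0 in both segments, so they do not separate them. Fxyd4, a regulator of the sodium pump, was the 1 marker called higher in WT proximal tubule, at 0.678 ± 0.262 CPM against 0.211 ± 0.222 CPM in WT distal libraries (limma adjusted p = 0.0149). In KO it was at 0.403 ± 0.199 CPM in proximal and 0.25 ± 0.198 CPM in distal libraries (limma adjusted p = 0.346). Which cells gave the Aqp3 RNA of the proximal libraries was not tested.

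Aqp8 and Aqp4 were close to the detection limit. Aqp8 had 1, 1 and 23 counts in KO and 0, 19, 1 and 3 in WT proximal libraries, and 0 in all 8 distal libraries. Most of its counts lay in 1 KO and 1 WT library. The exact permutation p of its segment difference was 0.0286 in KO, the smallest possible, and 0.143 in WT. These values rest on 3 counts or fewer in 5 of the 7 proximal libraries. Aqp4 had 8, 0 and 0 counts in KO and 0 in the 4 WT proximal libraries, and 0, 0, 6 and 4 in KO and 2, 25, 0 and 0 in WT distal libraries. The exact permutation p of its segment difference was 1 in KO and 0.429 in WT. Of the other family genes, Mip, Aqp9 and Aqp12 had 0 counts in all 15 libraries, and Aqp5 had 0 to 2 in KO and 0 to 1 in WT distal libraries.

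**Figure D2:**
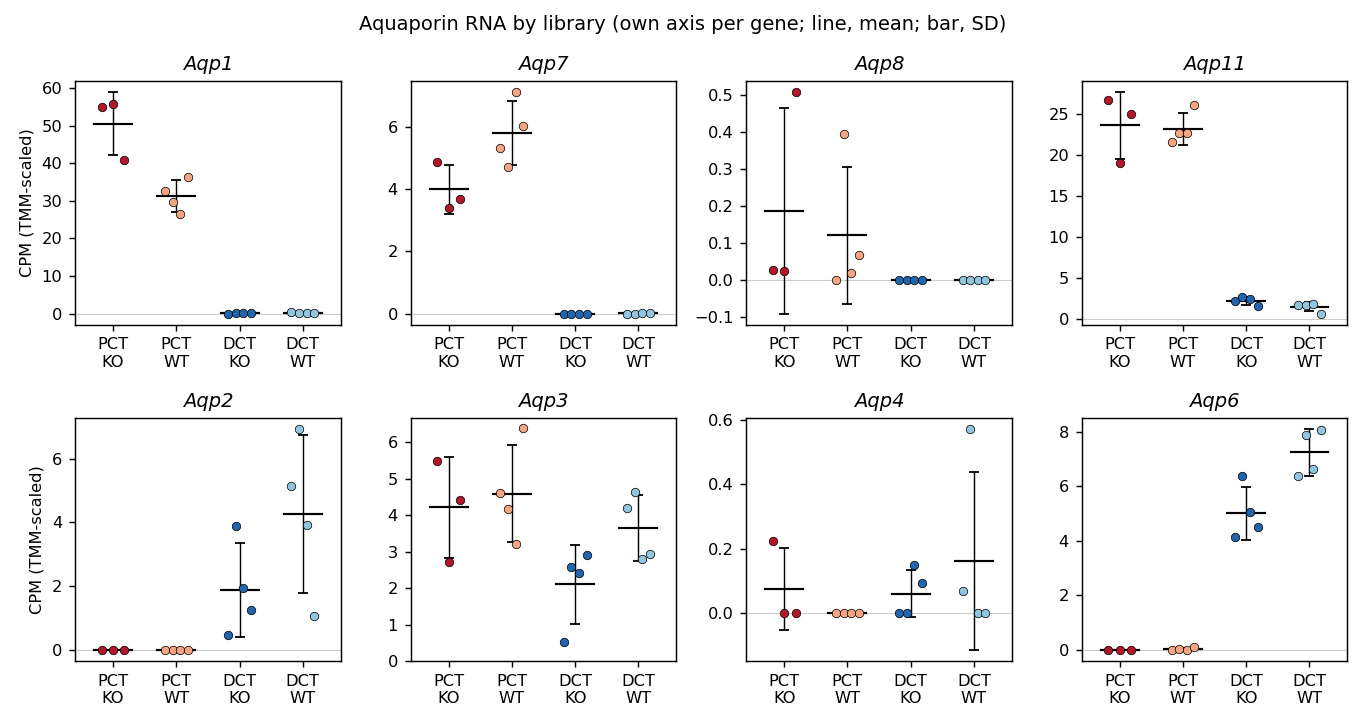
CPM of each aquaporin in each library (points), on a linear axis per gene, for KO and WT proximal (PCT) and KO and WT distal (DCT) libraries, with the mean (line) and SD (bar). The 3 KO proximal points of Aqp1, at 40.9 to 55.7 CPM, lie above the 4 WT points, at 26.6 to 36.4 CPM, and the 4 KO distal points of Aqp6, at 4.12 to 6.36 CPM, lie below the 4 WT points, at 6.38 to 8.07 CPM.

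The second question was whether loss of claudin-10a goes with other aquaporin levels in the proximal tubule. None of the 4 members past the filter was called there, against 0.166% of all genes tested (22 of 13229, 13 higher and 9 lower). Among the 4 members, Aqp1 had a higher and Aqp7 a lower mean in KO, each at an unadjusted p under 0.05, as were 976 of the 13229 genes (7.38%) in either direction. In bulk tubules, fewer cells of a type and less RNA per cell cannot be told apart.

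Aqp1 had 55.0, 55.7 and 40.9 CPM in KO proximal libraries (50.6 ± 8.33, SD, n = 3), against 32.5, 29.6, 26.6 and 36.4 CPM in WT (31.3 ± 4.20, SD, n = 4). The lowest KO library lay above the highest WT library, as the groups did for 7.97% of genes tested. This 1.6-fold difference, 0.68 ± 0.17 on the log2 scale (95% interval 0.31 to 1.05), missed the threshold (limma adjusted p = 0.199). It ranged from 0.58 to 0.90 over the alternatives, with adjusted p of 0.0422 to 0.658, and passed in 1 fit of all 15 libraries. The 0.90 (limma adjusted p = 0.0967) was without WT replicate 6 and KO replicate 7, whose label numbers come from a lower range. Those were the highest WT library, at 36.4 CPM, and the lowest KO library, at 40.9 CPM, so the Aqp1 values of that range lay closest together. The authors' deposited table gives Aqp1 a log2 fold change of 0.68 with an adjusted p of 0.0321, where it calls 136 of 14748 genes (0.922%). The direction of that table was read from its value for Cldn10, -12.22.

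Aqp7 had 4.88, 3.40 and 3.68 CPM in KO proximal libraries (3.99 ± 0.782, SD, n = 3), against 5.33, 4.72, 7.11 and 6.03 CPM in WT (5.80 ± 1.02, SD, n = 4). The highest KO library lay above the lowest WT library. The log2 difference was -0.56 ± 0.22 (95% interval -1.05 to -0.08, limma adjusted p = 0.589), and -0.55 in the authors' deposited table (adjusted p = 0.556).

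Aqp11 had 26.7, 19.0 and 25.0 CPM in KO proximal libraries, against 21.5, 22.6, 22.6 and 26.0 CPM in WT. The ranges coincided, and the 95% interval of the log2 difference was -0.36 to 0.36 (limma adjusted p = 0.999). For Aqp3 the log2 difference was -0.14 ± 0.29 (95% interval -0.76 to 0.47, limma adjusted p = 0.936). Below the filter, exact permutation p was 0.571 for Aqp8, 0.429 for Aqp4 and 0.429 for Aqp6, where 0.0286 was the smallest possible.

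Marker levels of tubule parts and of other cells also differed between the same proximal libraries. The straight proximal tubule is where Aqp7 protein is known to lie in rodents, and its 11 markers summed to 849 to 972 CPM in KO and 293 to 502 CPM in WT proximal libraries. Of the 10 tested, 9 were above 0 with a median log2 difference of 1.46, against -0.01 over all genes. Atp11a, a phospholipid flippase, rose (115 ± 12.5 CPM in KO and 39.1 ± 14.6 CPM in WT, log2 1.62, limma adjusted p = 0.0269), as did Acy3, an aminoacylase (506 ± 115 CPM in KO and 231 ± 44.3 CPM in WT, log2 1.12, limma adjusted p = 0.0381). Early proximal markers summed to 2519 to 2897 CPM in KO and 2890 to 3548 CPM in WT. All 9 of them were below 0 with a median of -0.58, and 0 were called. All marker lists were chosen with earlier results of these data known, so the signs of their genes are given as a description. In the same comparison Aqp1 was at 0.68 and Aqp7 at -0.56 on the log2 scale, and neither was called. The part of the tubule's position in the results for Aqp1 and Aqp7 was not tested.

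Endothelial cells of the descending vasa recta also carry Aqp1, and the 10 endothelial markers were tested beside it. Their summed level was 45.2, 44.0 and 24.8 CPM in KO proximal libraries (replicates 4, 5 and 7), against 14.3, 22.9, 28 and 29 CPM in WT. The groups overlapped. KO replicate 7 was the lowest KO library in both Aqp1 and these markers. WT replicate 1, lowest in the markers, had 32.5 CPM of Aqp1. WT replicate 3, lowest in Aqp1 at 26.6 CPM, had a marker sum of 28 CPM. All 10 were above 0 with a median log2 difference of 0.60, and 0 were called. In distal libraries the same sum was 63.1 to 70.8 CPM in KO and 70.8 to 98.1 CPM in WT. Aqp1 there was at 0 to 0.184 CPM in KO and 0.0686 to 0.31 CPM in WT. The list stands for endothelial cells as a whole, so it cannot single out those of the descending vasa recta. The 5 markers of the thin descending limb, which also uses Aqp1, summed to 1 to 2.58 CPM in KO and 1.76 to 2.23 CPM in WT proximal libraries. Slc14a2, Slc4a11 and Sptssb of that list were at 0 in KO and Slc14a2 and Sptssb in WT. The 6 erythroid markers, of cells that carry Aqp1, summed to 0 to 0.0497 CPM in KO and 0 to 0.847 CPM in WT. The part of endothelial, thin limb and erythroid cells in the Aqp1 difference was not tested.

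**Figure D3:**
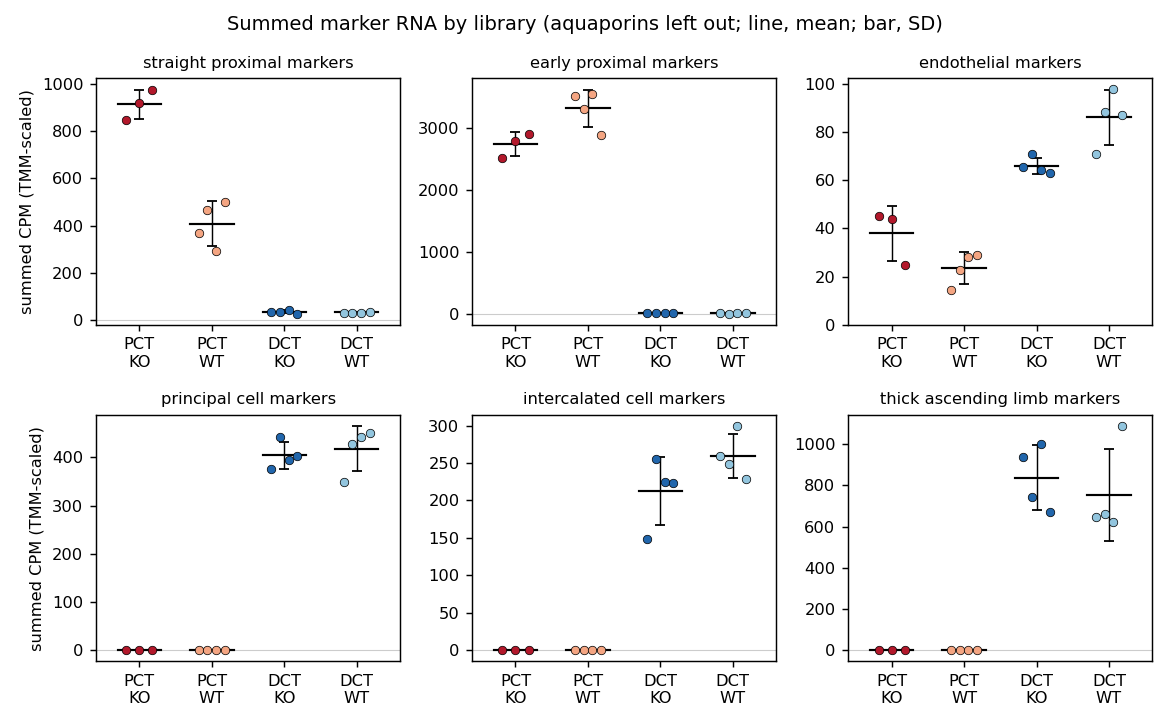
Summed CPM of 6 marker lists in each library (points), with aquaporins left out of the lists, for KO and WT proximal (PCT) and KO and WT distal (DCT) libraries, with the mean (line) and SD (bar). Straight proximal markers lie at 849 to 972 CPM in KO and 293 to 502 CPM in WT proximal libraries, and intercalated cell markers at 149 to 256 CPM in KO and 229 to 299 CPM in WT distal libraries.

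The third question was the same comparison in the distal tubule. None of the 4 members past the filter was called, where 0% of genes tested were called (0 of 12968 with limma, 924 at an unadjusted p under 0.05, lowest adjusted p 0.522). Aqp2, Aqp3 and Aqp6 had lower means in KO and Aqp11 a higher one, each at an unadjusted p under 0.05, as were 7.13% of genes tested.

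Markers of neighbouring segments varied among these libraries, with overlapping groups. The 6 thick ascending limb markers summed to 939, 743, 998 and 669 CPM in KO distal libraries (replicates 5 to 8), against 645, 661, 624 and 1086 CPM in WT (replicates 1 to 4). On average Egf gave most of these sums, at 521 ± 105 CPM in KO and 537 ± 138 CPM in WT. Egf is also listed as a distal convoluted tubule marker, so the sums do not measure thick limb content alone. WT replicate 4, lowest of its group in Aqp2 and Aqp11, had the highest sum of all 8. Of the 6 markers, 5 were above 0 with a median log2 difference of 0.55, and 0 were called; Slc12a1, the sodium, potassium and chloride cotransporter, averaged 79.3 ± 31.1 CPM in KO and 45.4 ± 27.4 CPM in WT (limma adjusted p = 0.669). The 6 connecting tubule markers summed to 5497 to 7494 CPM in KO and 6423 to 9356 CPM in WT. All 6 were below 0 with a median of -0.10, and 0 were called; S100g, the calcium buffer calbindin-D9k, averaged 935 ± 162 CPM in KO and 1370 ± 310 CPM in WT (log2 -0.54, limma adjusted p = 0.661). Their part in the aquaporin differences was not tested.

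Aqp6 had 4.12, 6.36, 5.05 and 4.52 CPM in KO distal libraries (5.01 ± 0.977, SD, n = 4), against 6.38, 7.89, 6.63 and 8.07 CPM in WT (7.24 ± 0.863, SD, n = 4). The groups were just apart, as they were for 3.82% of genes tested. The log2 difference was -0.56 ± 0.18 (95% interval -0.95 to -0.18, limma adjusted p = 0.669), and -0.53 with an adjusted p of 0.395 in the authors' deposited table. The direction of the authors' distal table was read from the 924 genes at an unadjusted p under 0.05 here, of which 100% had the sign of KO over WT in it.

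Other intercalated cell markers lay on the same side of 0. Without Aqp6, the 8 markers summed to 149, 256, 225 and 223 CPM in KO distal libraries, against 259, 249, 299 and 229 CPM in WT. The groups overlapped, and KO replicate 5 was lowest both here and in Aqp6. In WT, replicate 4 had the lowest sum and the highest Aqp6 (8.07 CPM), and replicate 3 the highest sum with Aqp6 at 6.63 CPM. With Aqp6 counted, 9 of 9 markers were below 0 with a median log2 difference of -0.36, and 0 were called. Slc4a9, a bicarbonate transporter of type B intercalated cells, averaged 14.7 ± 4.86 CPM in KO and 19.5 ± 2.16 CPM in WT (log2 -0.48, limma adjusted p = 0.669). Rhcg, an ammonia channel, averaged 27.8 ± 4.49 CPM in KO and 34.5 ± 1.52 CPM in WT (log2 -0.33, limma adjusted p = 0.678). The part of intercalated cell content in the Aqp6 difference was not tested.

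Aqp2 had 0.472, 3.89, 1.96 and 1.25 CPM in KO distal libraries (1.89 ± 1.47, SD, n = 4), against 5.14, 6.93, 3.92 and 1.07 CPM in WT (4.26 ± 2.46, SD, n = 4). The groups overlapped, and within each group its level spread several-fold. On the log2 scale the difference was -1.22 ± 0.55 (95% interval -2.36 to -0.08, limma adjusted p = 0.686). It was -0.71 without KO replicate 5 and -1.86 without WT replicate 4, and called in neither.

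Aqp3 averaged 2.11 ± 1.07 CPM in KO and 3.65 ± 0.91 CPM in WT distal libraries (SD, n = 4 each), with overlapping groups. KO minus WT was -0.99 ± 0.37 on the log2 scale (95% interval -1.76 to -0.21, limma adjusted p = 0.669). Without KO replicate 5, which had 20 counts of Aqp3 where the other KO libraries had 89 to 126, it was -0.43.

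The principal cell markers that are not aquaporins overlapped between genotypes, at 376 to 443 CPM in KO and 350 to 451 CPM in WT distal libraries. Over the 8 of 12 markers tested, Aqp2 and Aqp3 included, 2 were above and 6 below 0 with a median of -0.14, and 0 were called. Hsd11b2, the enzyme that shields the mineralocorticoid receptor from glucocorticoids, averaged 29.9 ± 15.1 CPM in KO and 43.4 ± 11.7 CPM in WT (log2 -0.71, limma adjusted p = 0.681). Scnn1a, a subunit of the epithelial sodium channel, averaged 93.6 ± 14.6 CPM in KO and 106 ± 10.8 CPM in WT (log2 -0.19, limma adjusted p = 0.776).

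Aqp11 had 2.18, 2.67, 2.54 and 1.61 CPM in KO distal libraries, against 1.72, 1.78, 1.86 and 0.706 CPM in WT. KO replicate 8 lay within the WT range. KO minus WT was 0.67 ± 0.32 on the log2 scale (limma adjusted p = 0.686), and 0.28 without WT replicate 4, the lowest library. Below the filter, exact permutation p was 0.543 for Aqp1, 0.886 for Aqp4 and 0.429 for Aqp7, where 0.0286 was the smallest possible.

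**Figure D4:**
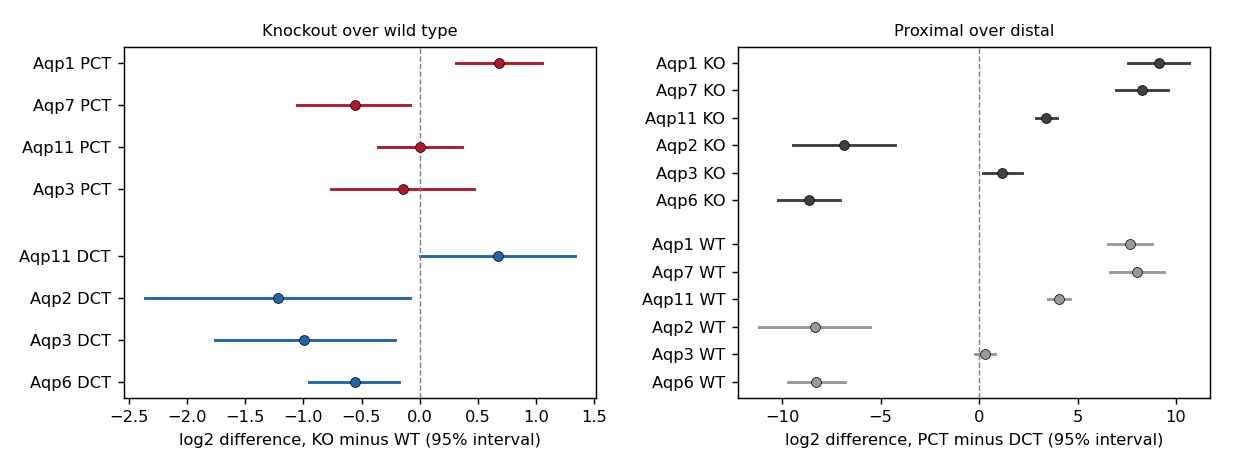
Log2 differences from limma with 95% intervals for the aquaporins past the filter, KO over WT (left) in proximal (PCT) and distal (DCT) tubule, and proximal over distal (right) in KO and WT; the horizontal scales differ. No KO over WT difference exceeds 1.22 in size, while the members called between segments differ by 3.41 or more.

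The genotype differences of the 2 segments were compared in 1 model of all libraries. None of the 6 members tested was called for the difference between them, where 0% of genes were (0 of 15279 with limma, 849 at an unadjusted p under 0.05). The proximal minus distal genotype difference was 1.41 ± 0.94 on the log2 scale for Aqp1 (limma adjusted p = 0.971), 0.86 ± 0.52 for Aqp3 (adjusted p = 0.954) and -0.65 ± 0.36 for Aqp11 (adjusted p = 0.94). Without KO distal replicate 5 it was 0.49 for Aqp1 and 0.29 for Aqp3, and without WT distal replicate 4 it was -0.29 for Aqp11. Those of Aqp2, Aqp6 and Aqp7 had SEs of 2.67, 1.25 and 1.14. Aqp1, Aqp2, Aqp6 and Aqp7 each had 9 counts or fewer in every library of 1 segment.

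The machinery known to act on Aqp2 was measured with 18 genes, from the vasopressin receptors to the kinase that phosphorylates the channel. Avpr2, the V2 receptor through which vasopressin acts on Aqp2, had 0 counts in KO distal libraries and 0 to 2 in WT, 4 in all. Elf5, a transcription factor of principal cells that is not among the 18, had 0 in every library. Avpr1a, the V1a receptor, was detected at 51 to 608 counts in KO and 185 to 706 in WT distal libraries, and at 0 in all 7 proximal libraries. Its levels averaged 8.28 ± 6.93 CPM in KO and 10.9 ± 6.58 CPM in WT distal libraries (limma adjusted p = 0.789). Of the 10 genes of the list tested in proximal and 11 in distal tubule, 0 were called between genotypes. Over all genes tested, 0.166% were called in proximal and 0% in distal tubule. The medians of the list were -0.19 and 0.17, against -0.01 over all genes in each segment.

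Between segments, 1 of 11 tested genes of the list was called higher and 6 lower in KO proximal tubule (20.4% higher and 20.2% lower over all genes), and 2 higher and 6 lower in WT (23.6% and 25.1% over all genes). Adcy6, an adenylyl cyclase needed for the action of vasopressin in mice, averaged 1.52 ± 0.439 CPM in KO proximal and 10.6 ± 2.06 CPM in KO distal libraries (log2 -2.84, limma adjusted p = 3.73e-06). In WT it averaged 2.44 ± 0.338 CPM in proximal and 9.82 ± 1.42 CPM in distal libraries (log2 -2.01, limma adjusted p = 1.89e-07). Pde3b, a phosphodiesterase, fell by 2.82 in KO proximal tubule and fell by 1.97 in WT proximal tubule on the log2 scale. Akap11, an anchor of protein kinase A, was higher in WT proximal tubule by 0.90 (limma adjusted p = 1.36e-05).

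Tonicity-response genes were examined because Nfat5, the transcription factor of hypertonicity, acts on Aqp2 in cultured cells. Of 6 tested, 0 were called between genotypes in either segment, where 0.166% of all genes were in proximal and 0% in distal tubule. The medians were 0.26 in proximal and 0.15 in distal tubule, against -0.01 over all genes in each. Between segments 1 was called higher and 4 lower in KO proximal tubule (20.4% and 20.2% of all genes), and 1 higher and 5 lower in WT (23.6% and 25.1% of all genes). Nfat5 averaged 8.52 ± 4.75 CPM in KO proximal and 23.5 ± 3.34 CPM in KO distal libraries, and 8.73 ± 2.14 CPM in WT proximal and 20.8 ± 2.53 CPM in WT distal libraries. Slc5a3, the myo-inositol transporter, had proximal to distal log2 differences of -4.97 in KO and -5.19 in WT. Slc6a6, the taurine transporter, was higher there by 3.02 in KO and 2.59 in WT. Of the urea transporters, Slc14a2 had 2 counts in all and Slc14a1 had 108 counts in WT proximal replicate 6 and 0 to 2 in each other library.

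Genes that handle glycerol, the other cargo of Aqp7 and Aqp3, differed between segments in both directions. Of 10 tested, both aquaporins included, 6 were called higher and 2 lower in KO proximal tubule than in KO distal tubule, and 5 higher and 3 lower in WT. Over all genes these shares were 20.4% higher and 20.2% lower in KO, and 23.6% and 25.1% in WT. Gk, glycerol kinase, averaged 82.7 ± 13.9 CPM in KO proximal and 0.237 ± 0.12 CPM in KO distal libraries, and 71.8 ± 13.2 CPM in WT proximal and 0.416 ± 0.227 CPM in WT distal libraries. Gpd1, the cytosolic glycerol-3-phosphate dehydrogenase, was higher in proximal tubule by 4.74 in KO and 4.84 in WT on the log2 scale. Mgll, monoacylglycerol lipase, had one of -3.89 in WT. Between genotypes, 0 of the 10 tested in proximal and 0 of the 9 tested in distal tubule were called, against 0.166% and 0% of all genes. The smallest p was that of Gpd2, the mitochondrial glycerol-3-phosphate dehydrogenase, at 16.5 ± 3.71 CPM in KO and 8.08 ± 2.1 CPM in WT proximal libraries (log2 1.04, limma adjusted p = 0.106).

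The genes whose levels followed a member most closely were sought among 6698 protein-coding genes over the 7 proximal libraries and 6762 over the 8 distal libraries, by Pearson r of log2(CPM + 0.5). With so few libraries, 2 genotypes and a shared scaling, high values are found among so many genes, and r is given as a description. For Aqp1 they were Mgam, maltase-glucoamylase (r = 0.995), Psma4, a proteasome subunit (r = 0.99), and Cldnd1 (r = 0.982). Mgam averaged 32.8 ± 7.58 CPM in KO and 18.2 ± 3.28 CPM in WT proximal libraries (log2 0.82, limma adjusted p = 0.173). For Aqp7 they were Vps26b (r = 0.931), Otud7b (r = 0.918) and Me3, a mitochondrial malic enzyme (r = 0.912). For Aqp11 they were Clpp, a mitochondrial protease (r = 0.986), Gm5617 (r = 0.969) and Tspo (r = 0.967).

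Over the distal libraries, the genes closest to Aqp2 were Cav1, caveolin-1 (r = 0.978), Cr1l (r = 0.948) and Kcne1, a potassium channel subunit (r = 0.943). Those closest to Aqp3 were Tdrp (r = 0.933), Tmem45b (r = 0.931) and Casp2 (r = 0.93), and those closest to Aqp6 were Tuba1a (r = 0.961), Pabpc4 (r = 0.946) and Timm23 (r = 0.946). None of these 9 genes belonged to the principal or intercalated cell lists.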

How the data were processed

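Per the labels' protocols, a micro-scale column kit gave the RNA and Nextera XT the libraries. The submitters' processing notes name CASAVA 1.8, STAR 2.5, DESeq2 1.24.0 and GRCm38. Which program counted reads, and whether by strand, is not given in the sources used here. The deposited table holds whole-number counts per gene, which the authors call raw. Its layout could not be read by the format check, so its unit was recorded as other and limma was the test. The deposited tables of the authors' log2 fold changes and p-values, also recorded as other, were used for comparison only. Replicates correlated at r = 0.959 to 0.982.

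limma 3.58.1 (R 4.3.3) was run on voom log2 CPM (prior count 0.5), with TMM scale factors (30% of log ratios and 5% of intensities trimmed). A gene was kept with about 10 counts in as many libraries as the smaller group holds and 15 in all. Each contrast was fitted on the groups compared, and a gene was called at a Benjamini-Hochberg adjusted p under 0.05 over all genes tested. Fits were tested on simulated data. CPM came from 1 scaling of all 15 libraries, and CPM per kilobase from GENCODE M21 exon lengths. Genes outside the fit had an exact two-sided permutation test, unadjusted. Named genes were the 8 members, the rest of the family, Cldn10, up to 4 genes of smallest p per list and the 3 closest to each member; Avpr2, Elf5, Avpr1a, Lrp2, Slc12a3, Slc14a1, Slc14a2, Slc4a11, Sptssb, Fxyd4, Scnn1g, Gata3 and Kcnj1 were added after their values were seen. The members and lists were chosen with earlier results of these data known. Alternatives were other scalings, filters, weights, limma-trend, 1 fit of all libraries, a looser threshold, a replicate block and leaving out libraries.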

Additional observations from a re-analysis of the deposited data

Results flagged for a closer look

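Within a group of 4 libraries, a value was looked at again where its gap to the nearest other library took up most of the range of the group. Of the 18 sets of values checked this way, 2 stood out, and chance gives about 1 in 20. Aqp4 had 0.572 CPM (25 counts) in WT distal replicate 2, where the other WT distal libraries had 0 to 2 counts, and the gap took up 0.879 of the range. Aqp11 had 0.706 CPM (33 counts) in WT distal replicate 4, where the others had 50 to 78 counts, and the gap took up 0.884 of the range. That library also had the lowest level of Aqp2 among WT distal libraries, at 1.07 CPM, and the highest of Aqp6, at 8.07 CPM.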

How the results depend on the processing

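Directions and calls of the 5 members called between segments held under every alternative run. In proximal tubule, KO against WT, 1 aquaporin (Aqp1, 0.69, adjusted p = 0.0422) was called in 1 fit of all libraries. The count of all genes called there, 22, was 80 without a filter, 36 with a stricter filter, 40 with sample quality weights, 46 at an adjusted p under 0.1, 123 in 1 fit of all libraries and 2 to 18 when 1 library was left out; leaving out any but WT replicate 6 moved it by over 1.5 times (2, 7 and 9 without WT replicates 1, 2 and 3, and 4, 6 and 10 without KO replicates 4, 5 and 7). Aqp3 in proximal tubule became 0.06 with quality weights and -0.37 to 0.14 with 1 library left out. Aqp11, at 0.00, became -0.0026 with median-of-ratios scaling, -0.05 with nuclear protein-coding library sizes, -0.02 without a filter, -0.01 with a stricter one and -0.12 to 0.15 with 1 library left out. In distal tubule 4 genes were called without a filter. For the difference between segments 1 gene was called without a filter, 10 with limma-trend, 2 without the 2 proximal libraries whose label numbers come from a lower range (WT replicate 6 and KO replicate 7), and 0 to 1 with 1 library left out. There, Aqp6 became 0.42 with limma-trend, 0.42 without those 2 libraries and -0.79 to 0.34 with 1 library left out, and Aqp7 became -0.46 with limma-trend and -0.03 to 0.56 with 1 library left out. Aqp3 between segments in KO was called in 5 of 17 alternatives.

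Nuclear protein-coding library sizes moved the median of all genes to -0.43 in KO and -0.29 in WT between segments (-0.04 and -0.02 by TMM), -0.11 for the difference between segments, and the split of calls to 2047 higher and 4390 lower in KO (2826 and 2795 by TMM) and 2455 higher and 4695 lower in WT (3210 and 3421). Replicate numbers did not pair the segments (r of deviations -0.127 and -0.252 in KO, -0.0149, -0.0524 and 0.0429 in WT). With the replicate number as a block 3238 genes were called in KO (5621 without) and 5840 in WT (6631), and the 5 aquaporins in each. With the longest transcript as length, Aqp11 was 4.06 CPM per kilobase in KO and 4.00 in WT proximal libraries. At this depth Aqp4 and Aqp8 had 25 counts or fewer in every library. The cause of these changes was not tested.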
